A study of Drosophila melanogaster with 3 samples.

Results

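The aminoacyl-tRNA synthetase genes of Drosophila melanogaster were examined for binding of the GFP-tagged protein of the gene CG4820. A protein-coding gene was counted as a member when its symbol was a three-letter amino acid code followed by RS, with or without -m at its end, and GluProRS was added. The rule used symbols alone and no measured value. It found 33 of the 13945 protein-coding genes on the chromosome arms 2L, 2R, 3L, 3R, 4 and X, namely 18 genes without the suffix, called cytosolic here, and 15 with it, called mitochondrial. The names follow the suffix alone, and some genes without it may also serve mitochondria, among them genes such as GlyRS and ThrRS for which no partner with the suffix was found. The genes alpha-PheRS and beta-PheRS, for the subunits of the cytosolic phenylalanine enzyme, do not match the rule and were kept in a separate list of related genes. Chromatin immunoprecipitation with sequencing had been run with an anti-GFP antibody on 3 biological replicates of whole embryos, collected at 0 to 16 h from a strain with GFP at the C-terminal end of CG4820. Embryos of both sexes were pooled, the replicates came from 1 transgenic line, and all samples form 1 group, so no untagged or control sample was compared here. Chromatin had been sheared by sonication. The data are lists of peaks on the dm6 genome build. They comprise a candidate list for each replicate (26597, 27004 and 26145 peaks for replicates 1, 2 and 3), a candidate list for the pooled replicates (21656) and the authors' reproducible or optimal list (4876). Candidate lists hold peaks together with background, by their own label, and read depth is unknown.

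Aminoacyl-tRNA synthetases join each amino acid to its transfer RNA, which is the step that fixes the genetic code before the ribosome reads it. Cells keep enzymes for the cytosol and for the mitochondrion, and in animals nearly all of the mitochondrial ones come from nuclear genes of their own. Several cytosolic enzymes of animals sit together in a multi-synthetase complex, and the genes are active in most dividing and growing tissues.

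A gene is called bound below when an optimal peak had its summit, the position of highest signal, within 500 bp of any of its annotated transcription start sites (TSS). Sequence at the summits of 7 bound genes is shown first. IleRS and GluProRS have the strongest peaks, AsnRS, GlyRS, AlaRS and ProRS-m carry a motif, and ProRS-m and LeuRS-m are mitochondrial genes from the weak end of the list. Each runs 5' to 3' on the strand of the synthetase gene, from 50 bp before to 50 bp after the summit, and was shortened where annotated exons begin. Bases come from the RefSeq genome of the dm6 assembly, and capitals mark matches to the motifs described further down.
IleRS (chr3L:22288460-22288560, plus strand, optimal rank 298, summit at base 51): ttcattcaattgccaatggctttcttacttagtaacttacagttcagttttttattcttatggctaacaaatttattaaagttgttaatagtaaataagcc
GluProRS (chr3R:23958461-23958561, minus strand, optimal rank 402, summit at base 51): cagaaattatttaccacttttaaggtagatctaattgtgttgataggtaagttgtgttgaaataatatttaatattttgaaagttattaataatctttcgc
AsnRS (chr2L:19131994-19132094, minus strand, optimal rank 1142, summit at base 51, TATAAA box on the other strand): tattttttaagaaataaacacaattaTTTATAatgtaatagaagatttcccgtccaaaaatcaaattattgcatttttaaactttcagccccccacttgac
GlyRS (chr3L:15095058-15095141, plus strand, optimal rank 3496, summit at base 51, core promoter motif 7): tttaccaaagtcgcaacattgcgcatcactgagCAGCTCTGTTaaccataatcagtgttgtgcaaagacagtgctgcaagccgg
AlaRS (chr2L:8381765-8381820, minus strand, optimal rank 4069, summit at base 14, DRE): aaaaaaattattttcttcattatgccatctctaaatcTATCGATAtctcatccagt
ProRS-m (chr3L:2651983-2652083, minus strand, optimal rank 3962, summit at base 51, TATAAA box): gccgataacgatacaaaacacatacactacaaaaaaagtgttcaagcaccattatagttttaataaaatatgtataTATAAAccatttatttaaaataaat
LeuRS-m (chr3L:4825688-4825770, plus strand, optimal rank 4853, summit at base 33): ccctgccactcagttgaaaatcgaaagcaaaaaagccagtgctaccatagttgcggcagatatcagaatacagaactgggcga

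CG4820-GFP was at the promoters of 11 synthetase genes, and the cytosolic ones held all the strong peaks. The 8 bound cytosolic genes were IleRS, GluProRS, SerRS, ThrRS, AsnRS, AspRS, GlyRS and AlaRS. The 3 bound mitochondrial genes were ProRS-m, CysRS-m and LeuRS-m. In all, 11 of 33 members (33.3%, 95% Clopper-Pearson interval 18.0 to 51.8%) were bound, against a background of 19.9% of all protein-coding genes, a share that lies inside the members' interval. Bound members among those with a candidate peak in the pooled list made up 47.8% (11 of 23), and the same share over all protein-coding genes was 44.2%. A pooled candidate of any strength was at 23 of 33 members (69.7%, interval 51.3 to 84.4%), against a background of 44.9%. Counting only optimal peaks that overlapped one of the 4876 highest-signal peaks in the other replicates left 7 members without replicate 1, 7 without replicate 2 and 7 without replicate 3, where 16.0%, 16.0% and 16.8% of protein-coding genes stayed bound. Requiring all 3 replicates left 6 members and 15.1% of protein-coding genes.

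Single replicates gave similar counts. All candidates of replicates 1, 2 and 3 placed a summit at 23, 24 and 22 members, where the background was 46.7%, 48.8% and 44.2% of protein-coding genes. With each replicate cut to its 4876 highest-signal peaks, as many as the optimal list holds, the counts were 11, 9 and 10 of 33, against backgrounds of 20.1%, 20.0% and 18.5%. The mean share of members under that cut was 30.3% ± 3.03 (SD, n = 3), and that of all protein-coding genes was 19.5% ± 0.918 (SD, n = 3). The share of members was above the background in all 3 replicates, but the optimal list is derived from these replicates and adds no separate sample. No test was run on the members as a list, because they were chosen with results of these data known.

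Among the cytosolic enzymes, 6 genes had strong peaks that every replicate placed near the top. A rank is the place of the gene's strongest promoter peak by signal within its own list, with 1 as the strongest, and signals of different lists share no scale. IleRS, which charges isoleucine (FBgn0027086, 3L, 22288665 to 22292810, plus strand), had rank 298 in the optimal list and ranks 233, 346 and 389 in replicates 1, 2 and 3. GluProRS, a fused enzyme for glutamate and proline (FBgn0005674, 3R, 23952136 to 23958391, minus strand), had rank 402 and replicate ranks 476, 407 and 328. SerRS, the serine enzyme (FBgn0031497, 2L, 3035493 to 3037403, minus strand), had rank 583 and replicate ranks 417, 683 and 709. All 3 genes held place 709 or better in every list, and the SerRS peak lay at chr2L:3037246-3037408.

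ThrRS, which charges threonine (FBgn0027081, 2L, 12103751 to 12107170, plus strand, peak at 12103429 to 12103844), followed at rank 773 with replicate ranks 682, 724 and 942. AspRS, the aspartate enzyme (FBgn0002069, 2R, 12877004 to 12883168, plus strand, peak at 12879903 to 12880318), had rank 1130 and replicate ranks 1546, 870 and 1347. AsnRS, the asparagine enzyme (FBgn0086443, 2L, 19129469 to 19131954, minus strand, peak at 19131836 to 19132251), had rank 1142 and replicate ranks 1456, 1190 and 1209, and it was the only member with more than 1 optimal summit in range, namely 2. The range of replicate ranks of each gene overlapped that of the next in this order of 6. Within single replicates, SerRS was ahead of ThrRS and ThrRS ahead of AspRS every time. The other neighbours in the order changed places between replicates. All 6 genes stayed among the 4876 highest-signal peaks of every replicate.

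The other 5 bound genes sat lower in the optimal list, and none of them was among the 4876 highest-signal peaks of every replicate. GlyRS, the glycine enzyme (FBgn0027088, 3L, 15095142 to 15097686, plus strand), had rank 3496 and replicate ranks 5424, 3840 and 3054. AlaRS, the alanine enzyme (FBgn0027094, 2L, 8378262 to 8381764, minus strand), had rank 4069 and replicate ranks 2676, 5559 and 5598. Both therefore crossed rank 4876 between replicates. The mitochondrial proline enzyme gene ProRS-m (FBgn0027082, 3L, 2650161 to 2651850, minus strand) had rank 3962 and replicate ranks 3297, 5489 and 3573. CysRS-m, for cysteine (FBgn0033900, 2R, 14159096 to 14161262, minus strand, peak at 14161173 to 14161588), had rank 4385 and replicate ranks 4662, 3626 and 6339. LeuRS-m, for leucine (FBgn0027085, 3L, 4825853 to 4829038, plus strand), had rank 4853 of 4876 and replicate ranks 5525, 4859 and 5846. Each of the 3 mitochondrial genes was below rank 4876 in at least 1 replicate.

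The bound cytosolic genes had a median optimal rank of 951.5 and the bound mitochondrial genes one of 4385, against 2066 over the 2770 bound protein-coding genes. Within the optimal list, 6 of 8 bound cytosolic genes and 0 of 3 bound mitochondrial genes were among the 2438 peaks of highest signal. The members together (54.5%) were close to all bound genes (57.3%) in that share. The authors' signal was 554.5 at IleRS and 101.3 at LeuRS-m, where the lowest of the list was 100.8.

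**Figure D1:**
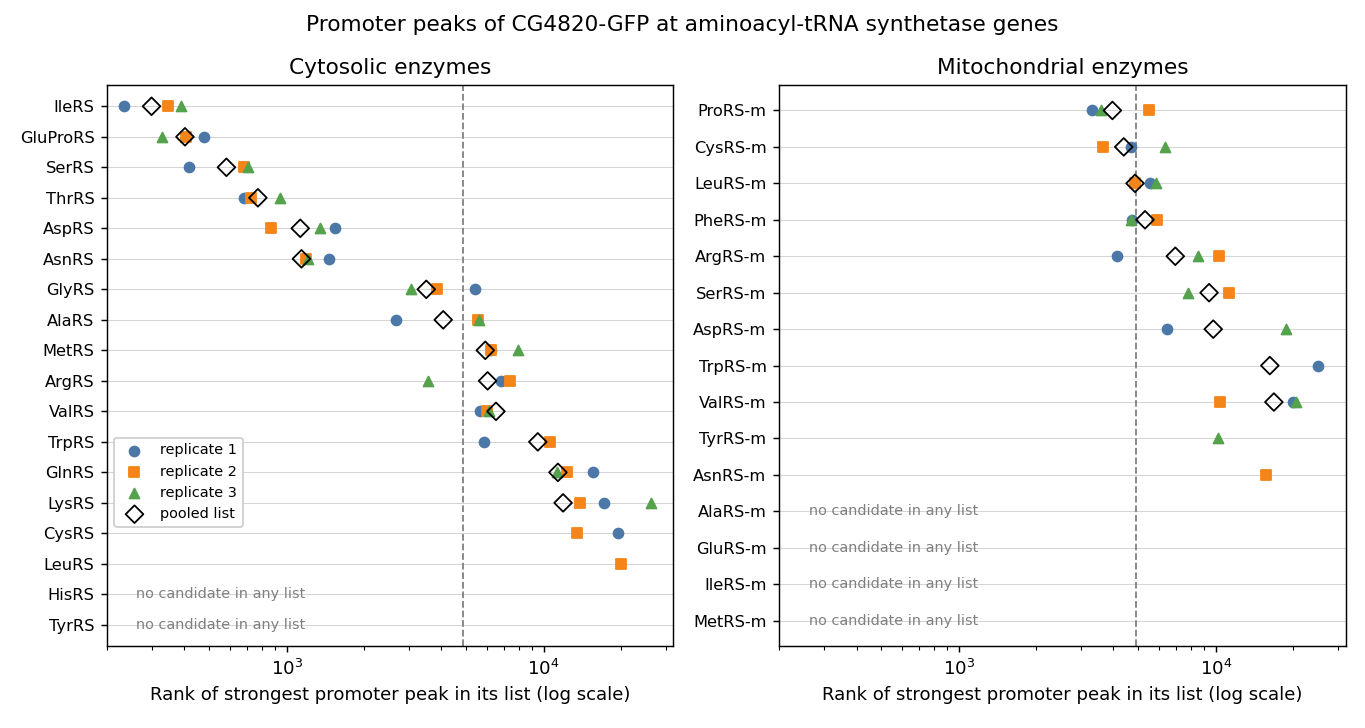
Rank of the strongest promoter peak at each of the 33 synthetase genes, on a log scale, in the 3 replicate lists (filled symbols) and the pooled list (open diamonds), with the dashed line at rank 4876, the size of the optimal list. The 6 cytosolic genes from IleRS to AsnRS lie left of the line in every list, no mitochondrial gene with a candidate does so, and 6 genes have no candidate in any list.

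The remaining 22 members had no optimal promoter peak, and 12 of them had a weaker candidate in the pooled list, with ranks from 5307 to 16841. PheRS-m, the mitochondrial phenylalanine enzyme, came nearest, at pooled rank 5307 and replicate ranks 4731, 5924 and 4698. MetRS, for methionine, had pooled rank 5933 and replicate ranks 6225, 6224 and 7935. ArgRS, for arginine, had pooled rank 6057 and replicate ranks 6822, 7436 and 3546. ValRS (pooled rank 6530) and ArgRS-m (6961) came next. PheRS-m, ArgRS and ArgRS-m were the only unbound members within the 4876 highest-signal peaks of at least 1 replicate.

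TrpRS, GlnRS and LysRS had pooled ranks of 9499, 11376 and 11915. Among mitochondrial genes, SerRS-m, AspRS-m, TrpRS-m and ValRS-m had pooled ranks of 9422, 9780, 16241 and 16841. A candidate in replicate lists alone was found at CysRS (replicates 1 and 2), LeuRS (replicate 2), AsnRS-m (replicate 2) and TyrRS-m (replicate 3), with no rank better than 10218. HisRS, TyrRS, AlaRS-m, GluRS-m, IleRS-m and MetRS-m had no candidate in any list. These 6 are 2 of 18 cytosolic and 4 of 15 mitochondrial genes.

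For optimal peaks the distance limit split no close cases. Among the strongest optimal summits of the bound genes the farthest was that of ProRS-m at 183 bp, and no unbound member had an optimal summit within 1000 bp. The nearest optimal summit of an unbound member was at HisRS, the histidine enzyme gene, 2181 bp from its TSS. That summit (X, 18517401 to 18517816, rank 4584, signal 106.3) lay in the coding sequence of HisRS and was the only optimal summit inside a synthetase gene away from its starts. Among pooled candidates, those of SerRS-m (at -493 bp, negative being upstream) and ValRS (at -489 bp) lay close to the limit, and the count of 23 members became 21 at 250 bp and 25 at 1000 bp.

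Cytosolic genes were bound more often than mitochondrial ones in the optimal list, but by less than the counting error. The shares were 8 of 18 (44.4%, 95% Clopper-Pearson interval 21.5 to 69.2%) and 3 of 15 (20.0%, interval 4.33 to 48.1%), beside a background of 19.9%. Neither share was tested against the background, because the members were chosen with results of these data known. The difference was 24.4 percentage points, and its 95% Newcombe interval of -7.64 to 49.8 points includes 0. In the 4876 highest-signal peaks of replicates 1, 2 and 3 the difference was 12.2, 25.6 and 31.1 points, a mean of 23.0 ± 9.71 (SD, n = 3), with the cytosolic share higher in all 3. In the pooled candidate list, 14 of 18 cytosolic and 9 of 15 mitochondrial genes had a summit, a difference of 17.8 points (interval -12.8 to 45.4). With all candidates of each replicate the difference ranged from 12.2 to 35.6 points, with a mean of 25.9 ± 12.2 (SD, n = 3), and the interval of replicate 2 alone, 4.76 to 60.1 points, excluded 0. The intervals treat genes as independent draws, and they cover counting error only.

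For 12 amino acids the rule found both a cytosolic and a mitochondrial gene, which allows a comparison amino acid by amino acid. The cytosolic gene alone was bound for alanine, asparagine, aspartate, isoleucine and serine, the mitochondrial gene alone for cysteine and leucine, and neither for the other 5. There was no amino acid for which both genes were bound. With 5 of 12 cytosolic and 2 of 12 mitochondrial genes bound, at most 2 amino acids could have been shared. The background was 19.9% of protein-coding genes, and whether the 2 kinds avoid each other was not tested. In the pooled list the cytosolic gene had the higher-ranked or the only candidate for 9 amino acids and the mitochondrial gene for 2, with no candidate at either tyrosine gene. A gene without a candidate was placed below one with a candidate. This applied to AlaRS-m, AsnRS-m, IleRS-m and MetRS-m, and to CysRS and LeuRS, so both mitochondrial cases were of this kind. In the replicates, scored in the same way, the cytosolic gene was ahead for 8, 9 and 8 amino acids and the mitochondrial gene for 3, 2 and 3. Cysteine and leucine went the mitochondrial way in each of the 3 replicates. Of the members without such a partner, GluProRS, GlyRS and ThrRS were bound among 6 cytosolic genes, and ProRS-m among 3 mitochondrial ones.

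Summits at the bound genes lay just upstream of the start and mostly in the gap between diverging genes. At 10 of 11 members the summit was upstream of the nearest TSS of the gene, where all bound protein-coding genes gave 90.0%. The median distance was 119 bp, and over all bound genes it was 152 bp. The exception was SerRS, with its summit 45 bp downstream of one of its 2 starts, in the 5' UTR, and 53 bp from the start of CG17260, which diverges from SerRS with 8 bp between them. The summit lay in intergenic sequence at 9 members and, at AspRS, in an intron of both AspRS and the overlapping Nmda1. Replicate summits fell close to the optimal one, with all 3 replicates within 50 bp at 9 of 11 genes. No such share over all bound genes is given here. At AlaRS the 3 replicate summits lay 43, 44 and 41 bp upstream, and at AsnRS 90, 95 and 87 bp upstream. The largest shifts were 77 bp at ThrRS and 60 bp at AspRS, both in replicate 1.

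At 8 of the 11 genes the summit lay between the synthetase start and the start of a neighbour on the other strand, so the peak cannot be given to either gene by position alone. The same share over all bound protein-coding genes is not given here. Of those 2770 genes, 1891 had a gene on the other strand that started within 1000 bp upstream and pointed away. Another gene had a TSS within 500 bp of the summit at 10 of 11 members, and over all bound protein-coding genes at 62.2%. The cytosolic summits were mostly nearer to the synthetase. IleRS shares its gap of 470 bp with Hem, a gene of the actin-regulating WAVE complex, and the summit lay 155 bp from IleRS and 315 bp from Hem. GluProRS faces the clathrin adaptor gene AP-1sigma, at 120 bp and 140 bp from the summit. The distances were 90 and 279 bp at AsnRS and the dynactin gene DCTN6-p27, 114 and 352 bp at ThrRS and Patsas, and 34 and 384 bp at GlyRS and the centrosome gene Plp.

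The mitochondrial summits were all nearer to the neighbour. The CysRS-m summit lay 119 bp from CysRS-m and 49 bp from O-fut1, which encodes the O-fucosyltransferase of Notch. The LeuRS-m summit lay 133 bp from LeuRS-m and 33 bp from Dhc64C, the gene of a dynein heavy chain, and the ProRS-m summit 183 bp from ProRS-m and 55 bp from Snup, the snurportin gene. When each optimal summit was given only to the gene with the nearest TSS, 7 cytosolic genes, GluProRS among them, and 0 mitochondrial genes stayed bound. Over all bound protein-coding genes, 70.2% had the TSS nearest to their summit. AspRS was the cytosolic gene lost. Its summit lay inside the gene, 173 bp before a start at 12880284 (the gene begins at 12877004) and 119 bp from a start of Nmda1.

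**Figure D2:**
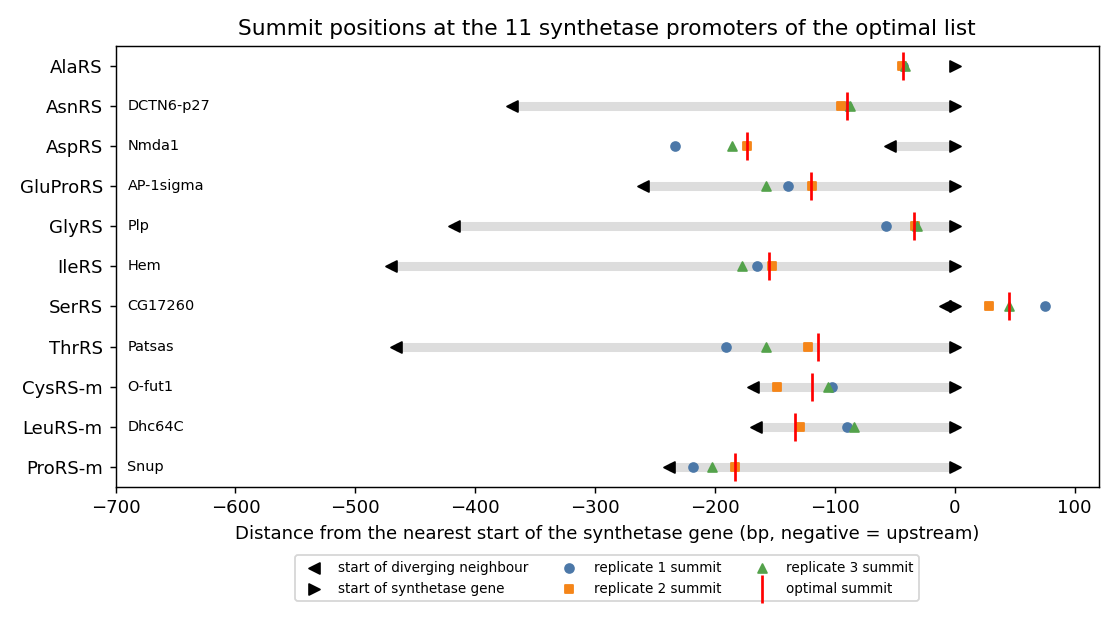
Position of the optimal summit (red bar) and of the nearest summit in each replicate (filled symbols) at the 11 bound synthetase genes, in bp from the nearest start of the gene, with black triangles at the starts and a grey band to the start of the diverging neighbour named at the left. At 8 genes the optimal summit falls inside the band, and at CysRS-m, LeuRS-m and ProRS-m it lies nearer to the neighbour's start.

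The orientation of neighbours differed between the 2 kinds of enzyme. A gene was called head-to-head when a gene on the other strand started within 1000 bp upstream of one of its starts and pointed away. This held for 16 of 18 cytosolic genes (88.9%), 7 of 15 mitochondrial genes (46.7%) and 39.4% of all protein-coding genes. Among head-to-head genes 7 of 16 cytosolic (43.8%) and 3 of 7 mitochondrial genes (42.9%) were bound, against a background of 34.5%. Among the others 1 of 2 cytosolic genes, AlaRS, and 0 of 8 mitochondrial genes were bound, against 10.4%. A count of 0 of 8 allows a share of up to 36.9% (upper Clopper-Pearson bound). All 3 bound mitochondrial genes were head-to-head, and within head-to-head genes the 2 kinds of enzyme differed by 1 point. That closeness rests on these 3 genes being counted as bound. Other promoter distances, peak midpoints and interval overlap kept all 3. With a summit counted only for its nearest TSS, or with support required from every replicate, 0 mitochondrial genes stayed bound. The cytosolic counts were then 7 (AlaRS among them) and 6 (without AlaRS). The part of orientation in the difference between cytosolic and mitochondrial genes was not tested.

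The number of annotated starts differed in the same way. More than 1 TSS was annotated for 7 of 18 cytosolic and 2 of 15 mitochondrial genes. Genes with 1 TSS were bound in 3 of 11 cytosolic and 3 of 13 mitochondrial cases, against a background of 15.6%. Genes with more starts were bound in 5 of 7 cytosolic cases (AlaRS, AspRS, GluProRS, SerRS and ThrRS) and 0 of 2 mitochondrial ones (AspRS-m and ValRS-m), against 31.6%. With only the TSS at the 5' end of each gene, 7 cytosolic and 3 mitochondrial genes were bound, so the further starts added AspRS alone. The part of the number of starts in the difference was not tested.

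**Figure D3:**
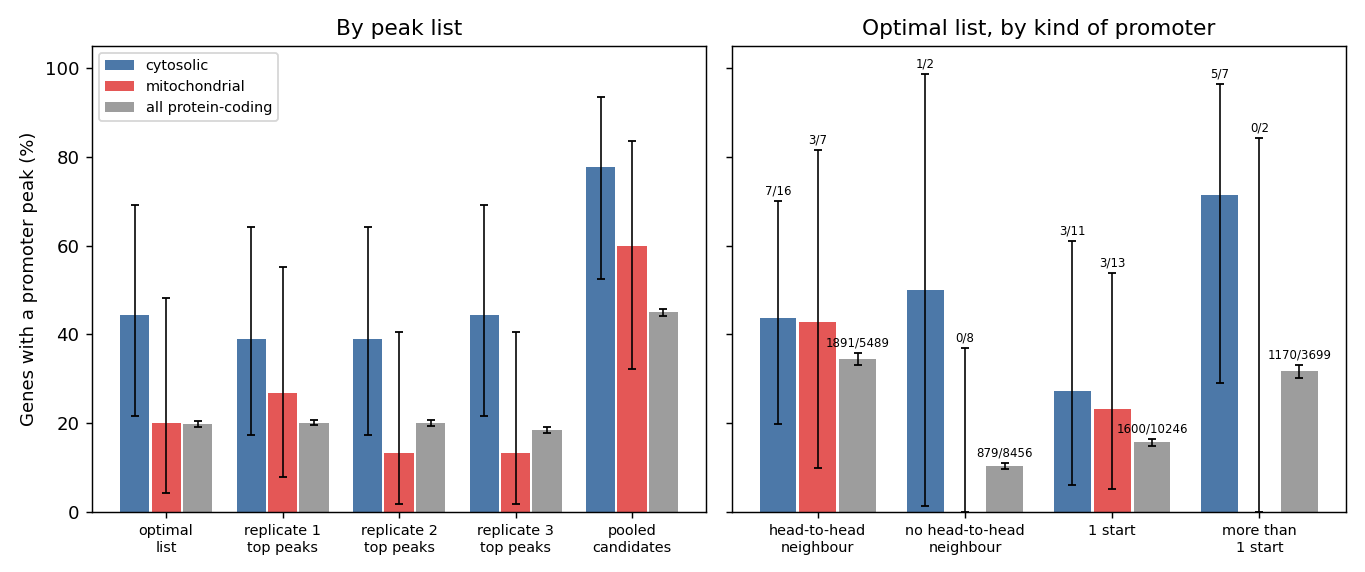
Percent of cytosolic, mitochondrial and all protein-coding genes with a promoter summit, by peak list (left) and, for the optimal list, by kind of promoter with the counts above the bars (right), with bars from 0 and 95% Clopper-Pearson intervals. The cytosolic bar is higher in each list on the left, with overlapping intervals, while 7 of 16 cytosolic and 3 of 7 mitochondrial head-to-head genes stand at 43.8% and 42.9%. These 3 mitochondrial genes are lost when every replicate must support the peak.

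Sequence at the bound summits was rich in A and T, as the printed windows of IleRS and GluProRS show. The median A+T content within 50 bp of the summit was 73.3% over the 11 genes, with a range from 51.5% at GlyRS to 77.2% at ProRS-m, and 67.3% over the 2156 optimal promoter summits. From 250 bp before to 50 bp after the 5' start it was 65.0% at bound members, 64.2% at unbound members and 62.0% at all protein-coding promoters. GlyRS and LeuRS-m (54.5%) were the members below the median of all promoter summits.

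Of the motifs sought, TATAAA alone was in the promoters of most bound genes, and none was within 50 bp of most of their summits. Motifs were matched on both strands, and shares are of promoters of that same length. Each promoter was taken at the 5' start of its gene. At AspRS, counted among the genes with TATAAA, that is not the start near its peak. The DRE, TATCGATA, the site of the promoter factor DREF, was in the promoters of 5 of 33 members (15.2%), namely AlaRS, ArgRS, IleRS, PheRS-m and TrpRS, and in 9.36% of all promoters. At a summit it was found only at AlaRS, whose replicate summits all lay within 2 bp of the optimal one, and at 3.57% of all promoter summits. Core promoter motif 7 was in 3 member promoters (GluProRS, GlyRS and PheRS-m, 9.09% against 2.45% of all) and at the GlyRS summit (0.974% of all promoter summits). The core GGTCACAC of the M1BP motif was in 4 promoters (AsnRS-m, AspRS-m, GlnRS and ProRS-m, 12.1% against 7.70%) and at none of the 11 summits.

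The TATAAA box was in 18 member promoters (54.5% against 45.8%), those of 8 of 11 bound and 10 of 22 unbound genes, and within 50 bp of 5 of the 11 summits (AlaRS, AsnRS, CysRS-m, ProRS-m and SerRS), where all promoter summits gave 23.4%. At AlaRS that match lies outside the stretch printed above. The CACGTG E-box, to which Myc binds, was in the promoters of GlnRS and LeuRS-m (6.06% against 4.20%). The homeodomain core TAATTA was in 5 (15.2% against 20.4%), the GAGAGAG repeat in that of ArgRS-m alone (3.03% against 5.87%) and the CTCF core in that of PheRS-m alone (3.03% against 0.997%). Core promoter motif 6 (2.23% of all promoters) and the polypyrimidine initiator within 2 bp of the start (0.179%) were in no member promoter. A match here is a match of letters and no shown site, and the shares were not tested against each other.

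Related genes of tRNA charging and delivery were bound in 4 of 17 cases (23.5%, 95% Clopper-Pearson interval 6.81 to 49.9%), close to the background of 19.9%. In the pooled list a candidate was at 13 of 17 (76.5%, interval 50.1 to 93.2%), against a background of 44.9%. With replicates 1, 2 and 3 each cut to the size of the optimal list, the counts were 6, 4 and 6 of 17. These shares were 35.3%, 23.5% and 35.3%, against backgrounds of 20.1%, 20.0% and 18.5%. The list held the cytosolic phenylalanine subunits, scaffold proteins, the mitochondrial amidotransferase and elongation factors that take part in bringing charged tRNA to the ribosome, directly or through a partner factor. beta-PheRS was bound (3R, rank 3349, replicate ranks 2968, 3230 and 4058), with its summit 37 bp upstream, while alpha-PheRS was not (pooled rank 6806, replicate ranks 9454, 9753 and 4605). The genes for the subunits of this 1 enzyme thus fell on different sides of the limit. The elongation factor gene eEF1gamma had the strongest peak of the list, rank 592 (replicate ranks 434, 504 and 1135), and eEF1alpha1 had rank 1802 (1348, 1995 and 2363). GatA, for a subunit of the mitochondrial amidotransferase that makes glutaminyl-tRNA, had rank 2554 (2503, 2362 and 3443), with a summit 78 bp upstream of GatA and 4 bp from the start of the proline synthesis gene P5cr. The scaffold genes AIMP1, AIMP2 and AIMP3, the SerRS-related Slimp, GatB, GatC, eEF1alpha2, eEF1beta, eEF1delta, mEFTu1, mEFTu2 and mEFTs had no optimal promoter peak.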

How the data were processed

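The labels describe ChIP-seq on embryos with CG4820 tagged by GFP, 3 biological replicates in 1 group, numbered by the labels. The README files deposited with the lists trace a candidate list to the alignment of its replicate (or, for the pooled one, of all replicates) and a control, and the optimal list, thresholded by irreproducible discovery rate, to these 4. Neither aligner nor caller was given in the sources used here. Peak heights are signal values of the authors, each on its own list's scale, and served only for ranking. Every optimal peak is among the 4876 highest of the pooled list. Of identical peaks, matched by interval and height, replicate lists shared 0. Whether anything beyond the number separates the replicates is not given, so the spread is that between these samples.

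Gene starts came from Ensembl release 115 (dm6 coordinates), without transposable elements and pseudogenes, which left 17896 genes, and sequence from the RefSeq genome of that assembly. All 33 members had a coding exon opening with ATG there. The dm3 lists were not used here. The members and gene lists were chosen with earlier results of these data known, and the synthetase classes and the complex in the closing section after their values were seen. Every member was named, with full values for bound ones, together with neighbours nearer to a summit and bound related genes. Of 18 related genes listed, 17 matched a symbol. Alternatives were other distances and summit rules, stricter peak sets, and optimal peaks supported by the other replicates, with each replicate left out of that rule in turn. The pairing of summits with starts was tested on simulated data. Figures were drawn with matplotlib 3.10.9, intervals computed with SciPy 1.17.1 and statsmodels 0.14.6, and tables joined with pandas 2.3.3 and NumPy 2.4.6 under Python 3.11.15.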

Additional observations from a re-analysis of the deposited data

How the results depend on the processing

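The counts of 8 cytosolic and 3 mitochondrial bound genes did not change with promoter distances of 250 or 1000 bp, peak midpoints, or overlap of the peak interval with the promoter. IleRS, GluProRS, SerRS, ThrRS and AsnRS were bound under all 11 alternatives. The total of 11 members fell to 7 when a summit counted only for its nearest TSS, to 6 with the 2438 highest-signal peaks and to 6 with peaks that every replicate supports, while the share of all protein-coding genes fell from 19.9% to 14.5%, 11.4% and 15.1%. The mitochondrial count fell to 0 under each of these 3 settings. Requiring support from the other replicates only, with each replicate left out in turn, gave 7 members each time and 0 to 1 mitochondrial genes, 0 of them without replicate 1. The share difference was 38.9 percentage points with the nearest TSS only, with a Newcombe interval of 11.3 to 61.4. With support required from the other replicates only, it ranged from 26.7 to 38.9 points, and it reached 38.9 without replicate 1. The optimal list filtered in this way stayed the one derived from all replicates. With the 2438 highest-signal peaks and with full replicate support it was 33.3 points (interval 6.75 to 56.3). These intervals excluded 0, while those of the whole optimal list and of the settings without replicate 2 or without replicate 3 included it; the cause was not tested. With only the TSS at the 5' end of each gene the difference was lowest, 18.9 points (interval -12.4 to 44.8). The cytosolic count stayed between 6 and 8. Related genes fell from 4 to 2 with the 2438 highest-signal peaks and stayed at 4 with full replicate support. Read depth is unknown, so weak candidates and missing ones could not be told apart by depth.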

Other observations

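Synthetases fall into the textbook classes I and II, which differ in the fold of the catalytic domain, and the bound cytosolic genes lay mostly in class II. Of 8 cytosolic class II genes 6 were bound (AlaRS, AsnRS, AspRS, GlyRS, SerRS and ThrRS; 75.0%, 95% Clopper-Pearson interval 34.9 to 96.8%), and of 9 class I genes only IleRS (11.1%, interval 0.281 to 48.2%), where the background was 19.9% of all protein-coding genes and 31.6% of those with more than 1 TSS. GluProRS carries a domain of each class and was left out. The phenylalanine enzyme is also of class II, but its cytosolic subunit genes do not match the rule and were not counted. Of these, beta-PheRS was bound and alpha-PheRS was not. In the 4876 highest-signal peaks of replicates 1, 2 and 3 the class II count was 5 in each, and the class I count was 1, 1 and 2, against backgrounds of 20.1%, 20.0% and 18.5%. Candidates of the pooled list were at 7 of 8 class II and 6 of 9 class I genes. The mitochondrial genes showed no such order, with 1 of 6 in class II and 2 of 9 in class I. Head-to-head neighbours were as frequent in both cytosolic classes (7 of 8 and 8 of 9), while more than 1 TSS was annotated for 5 of 8 class II and 1 of 9 class I genes. The grouping was made after the values were seen, so no test was run.

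Membership of the multi-synthetase complex, was also looked at after the values were seen. Of the 8 synthetase genes of that complex 3 were bound (AspRS, GluProRS and IleRS), and 5 of the 10 other cytosolic genes were, against a background of 19.9%. The difference was not tested.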
